A study of Mus musculus with 7 samples.

Results

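Imprinted genes were examined in alveolar macrophages, which clear particles and surfactant from the airspaces of the lung, after loss of Suz12. The set was 33 named imprinted genes out of 27179 genes in the count table, taken by symbol through their Entrez numbers and arranged in 16 loci. RNA came from 3 Suz12 cKO and 4 wild type libraries. Both groups were bone marrow chimeras on a C57BL/6 background: lethally irradiated Ly5.1 recipients were given 90% test marrow carrying Ly5.2 (Suz12 cKO in one group, wild type in the other) together with 10% wild type Ly5.1 competitor marrow. Macrophages were sorted from lung by flow cytometry. The Cre line, the deleted exons, the age and sex of the mice and any gating against competitor or recipient cells were not among the details used here. The design text calls the libraries biological replicates, and p-values measure the spread between them.

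Imprinted genes are expressed mainly from the copy inherited from one parent, because DNA methylation laid down in the egg or sperm marks a control region at each locus. Many of them act on fetal growth, and many are shut down in adult tissues. Suz12 is a core subunit of polycomb repressive complex 2 (PRC2), which methylates histone H3 at lysine 27 and keeps developmental genes silent. In mouse placenta PRC2 also takes part in the silencing of genes around the noncoding RNAs Kcnq1ot1 and Airn. Total gene counts do not tell the parental alleles apart, so every value below is the sum over both copies.

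Of the 33 genes, 5 rose in Suz12 cKO macrophages and 0 fell. The 5 were the growth factor gene Igf2, its clearance receptor gene Igf2r, the growth suppressor gene Ndn, the ubiquitin ligase subunit gene Asb4 and the splicing factor gene Zrsr1. They lie at 5 different loci. The count of members called higher depended on each library: dropping Suz12 cKO replicate 1, 2 or 3 left 2, 1 and 2 calls, while dropping wild type replicate 1, 2, 3 or 4 left 3, 8, 2 and 3. The 8 without wild type replicate 2 included Sgce and Plagl1, which then had no wild type count at all. Igf2r was among those called each time. It was 3 in the 4 libraries low in tissue RNA and 2 in the 3 high ones, a split by haemoglobin transcripts described below. At the loci of Kcnq1ot1, Mest, Gnas, Nnat, Impact, Plagl1 and Zdbf2, no member was called. At the Peg3, Dlk1-Meg3, Grb10 and Rasgrf1 loci no member had enough counts to be tested. A call means an adjusted p under 0.05 in edgeR's quasi-likelihood test with Benjamini-Hochberg adjustment over 14436 tested genes, of which 906 (6.28%) were called higher and 580 (4.02%) lower. Of the 33 members, 16 passed the filter on low counts, 12 had some counts below it and 5 had no count in any library. Igf2, Sgce and Plagl1 passed the filter through 3 Suz12 cKO libraries and at most 1 wild type library, so they had to differ, and Zdbf2 passed through 2 Suz12 cKO libraries and 1 wild type library. A share of called genes among those tested is not used as evidence about imprinted genes. Of tested genes that averaged under 1 CPM (counts scaled to library size, with TMM factors), 2.74% were called higher and 0.0871% lower, and of those at or over 1 CPM 6.94% and 4.76%. Fewer cells with a transcript and less of it per cell cannot be told apart in these bulk samples.

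Suz12 itself stood at 22.1, 23.6 and 15.1 CPM in the Suz12 cKO libraries, against 56.5, 56.3, 73.9 and 68.9 CPM in wild type (log2 fold change -1.65, SE 0.18, edgeR adjusted p = 0.00134). Libraries held 48104653 to 79281431 counts. All 20 listed alveolar macrophage markers had counts, and they summed to 39570 to 45351 CPM in Suz12 cKO and 33904 to 39843 CPM in wild type. Of the 20, 7 were called higher, among them Itgax, Fabp4, Ear1 and Ear2 (log2 fold changes 0.67, 2.25, 0.89 and 0.54). The 3 called lower were Plet1, Cd9 and Krt19 (-0.49, -0.46 and -0.43), named after their values were seen, and Krt19 lost its call without Suz12 cKO replicate 2 (adjusted p = 0.0627). Suz12 cKO replicates 1 and 2 held 192 and 155 CPM of haemoglobin transcripts, and wild type replicate 2 held 56.6 CPM. The other 4 libraries held 2.29 to 5.17 CPM. The surfactant gene Sftpc was also highest in those 3 libraries, which are called high in tissue RNA below. Results within the high and the low libraries are given below for Igf2, Ndn, Asb4, Zrsr1 and Impact. For most other genes, including some whose call changes, they are not given. The high class holds 1 wild type library and the low class 1 Suz12 cKO library, each assumed to vary like the others, so p-values within a class describe those libraries more than the genotypes. Among 9 neutrophil markers 4 of 7 tested were called higher (S100a8, Cxcr2, Retnlg and Csf3r, by 1.95, 1.77, 6.18 and 0.60 on the log2 scale). S100a9, Mmp8 and Ltf were not called, with overlapping ranges and log2 fold changes of 1.88, 0.39 and -2.51 (edgeR adjusted p = 0.677, 0.180 and 0.357). The 9 markers summed to 186 to 253 CPM in Suz12 cKO and 114 to 140 CPM in wild type. Ly6g and Camp were at 0. S100a8 kept its call whichever library was left out, Cxcr2 lost it without Suz12 cKO replicate 2 or 3 (adjusted p = 0.0575 and 0.0583), and Retnlg and Csf3r lost it in most such fits (highest adjusted p = 0.158 and 0.165). Retnlg, with 0, 2, 0 and 1 counts in wild type, passed the filter only through the Suz12 cKO libraries, so it had to differ. Among 16 markers of monocytes and interstitial macrophages 5 were called higher, among them Vcan, Fn1 and F13a1 (2.74, 1.36 and 2.60 on the log2 scale), and H2-Ab1 was the 1 called lower (-1.06), with sums of 6924 to 10733 CPM in Suz12 cKO and 3937 to 7989 CPM in wild type, and 0 markers were at 0. The 10 lymphocyte markers summed to 1.16 to 11.3 CPM in Suz12 cKO and 0.907 to 5.66 CPM in wild type, with 0 of 7 tested called. Erythroid markers summed to 1.92 to 150 CPM in Suz12 cKO and 2.35 to 41.5 CPM in wild type, with Slc4a1 at 0 in every library. The part of these cells in the results on imprinted genes was not tested. As background for the marker calls, 6.28% of all tested genes were called higher and 4.02% lower.

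**Figure D1:**
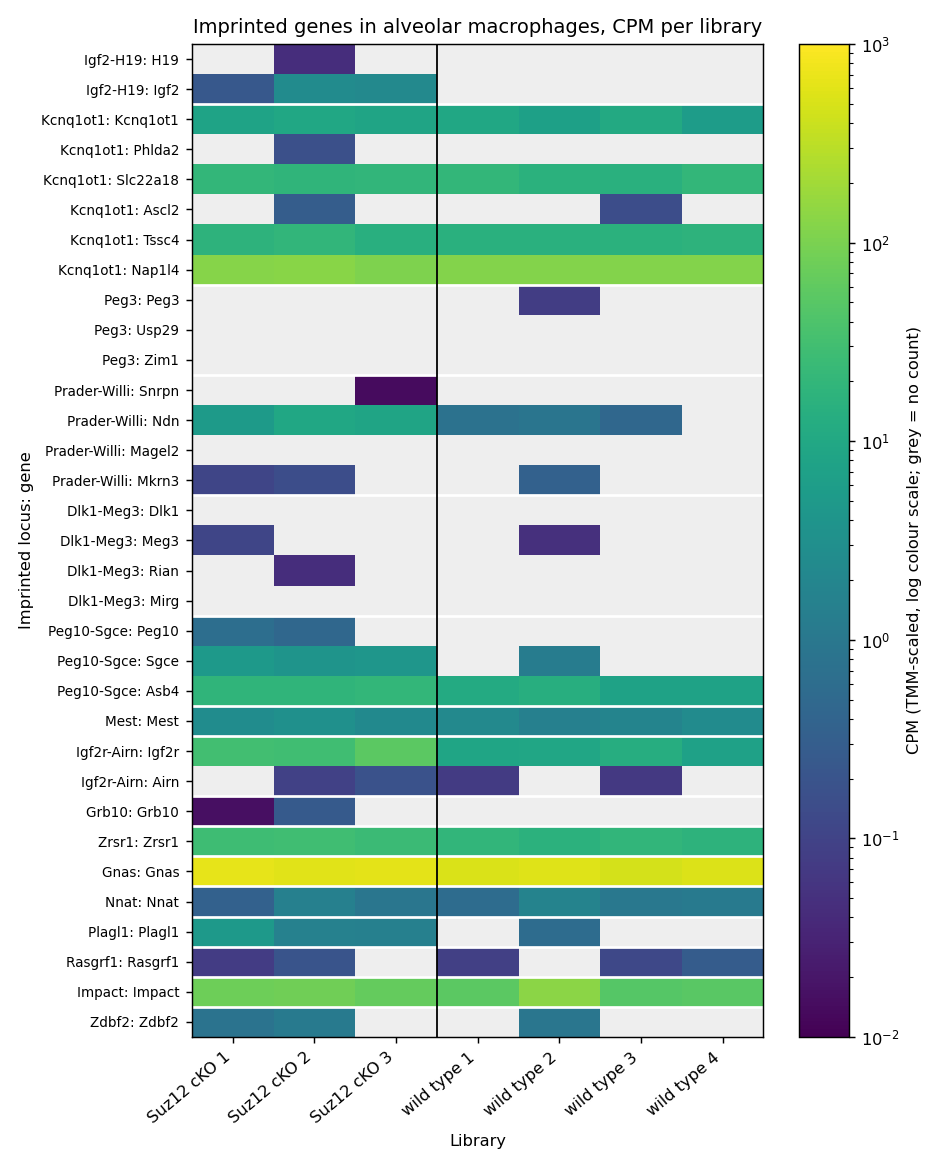
CPM of the 33 imprinted genes (rows, by locus) in the 3 Suz12 cKO libraries and the 4 wild type libraries (columns), with a log colour scale and grey for no count. Igf2 has counts only in the Suz12 cKO columns, Gnas is the brightest row in all 7 libraries, and 5 rows are grey throughout.

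The promoters of the 5 genes that rose are shown because PRC2 in mammals is found mainly at promoters rich in CG dinucleotides, and the control regions of imprinted loci are rich in CG as well. Each window runs from 250 bases before to 50 bases after an annotated start, 5′ to 3′ on the gene's own strand, from RefSeq for GRCm38.p6, with every CG in capitals.
Igf2 (chr7:142658755-142659054, minus strand): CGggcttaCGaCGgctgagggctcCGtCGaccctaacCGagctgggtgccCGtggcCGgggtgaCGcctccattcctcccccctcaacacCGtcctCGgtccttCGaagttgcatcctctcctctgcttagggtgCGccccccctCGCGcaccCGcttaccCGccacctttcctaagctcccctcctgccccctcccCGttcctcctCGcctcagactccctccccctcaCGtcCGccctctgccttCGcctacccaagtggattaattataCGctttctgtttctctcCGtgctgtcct
Ndn (chr7:62348027-62348326, plus strand): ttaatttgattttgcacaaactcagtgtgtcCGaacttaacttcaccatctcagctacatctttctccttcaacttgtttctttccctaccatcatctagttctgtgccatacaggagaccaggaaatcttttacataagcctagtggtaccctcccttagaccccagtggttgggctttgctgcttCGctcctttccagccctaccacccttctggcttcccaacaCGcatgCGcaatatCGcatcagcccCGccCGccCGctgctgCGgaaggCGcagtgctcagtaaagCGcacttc
Igf2r (chr17:12769657-12769956, minus strand): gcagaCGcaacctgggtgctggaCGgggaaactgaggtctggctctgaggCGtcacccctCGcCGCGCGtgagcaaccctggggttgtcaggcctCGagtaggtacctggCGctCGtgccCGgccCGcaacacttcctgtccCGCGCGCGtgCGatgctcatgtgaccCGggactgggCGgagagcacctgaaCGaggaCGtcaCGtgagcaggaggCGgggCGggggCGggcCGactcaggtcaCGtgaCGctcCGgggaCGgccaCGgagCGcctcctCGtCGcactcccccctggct
Zrsr1 (chr11:22971755-22972054, plus strand): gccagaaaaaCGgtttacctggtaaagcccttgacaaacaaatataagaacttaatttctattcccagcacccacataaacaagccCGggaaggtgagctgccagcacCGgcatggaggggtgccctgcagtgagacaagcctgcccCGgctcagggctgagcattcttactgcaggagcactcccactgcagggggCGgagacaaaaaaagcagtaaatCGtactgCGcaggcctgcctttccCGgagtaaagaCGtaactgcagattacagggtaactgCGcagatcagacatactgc
Asb4 (chr6:5383136-5383435, plus strand): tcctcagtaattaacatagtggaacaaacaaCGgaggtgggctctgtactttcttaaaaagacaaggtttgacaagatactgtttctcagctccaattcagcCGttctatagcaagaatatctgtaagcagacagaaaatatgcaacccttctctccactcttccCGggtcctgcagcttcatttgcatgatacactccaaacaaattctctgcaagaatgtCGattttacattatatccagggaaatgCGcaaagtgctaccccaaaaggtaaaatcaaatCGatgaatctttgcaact
The windows hold 24 CG sites for Igf2, 11 for Ndn, 34 for Igf2r, 10 for Zrsr1 and 6 for Asb4. Igf2 has 4 annotated windows, and the other 3 hold 7, 14 and 2 sites. A second Asb4 window holds 8. A window was called CpG-rich at a GC content of at least 50% and an observed over expected CG ratio of at least 0.6. By that measure 3 of the 9 windows of the 5 genes were CpG-rich (1 of Igf2, and those of Ndn and Igf2r), which is 33.3%. Over all genes the share was 33.5% of 32851 windows, and over windows of tested genes 62.4%. The motif CG, which reads the same on both strands, occurs in 94.6% of all windows. Among the 33 members, 28 have a window in the table and 16 of these have at least 1 CpG-rich window. The dinucleotide count describes the reference sequence, and neither its methylation nor PRC2 binding was measured.

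The Igf2-H19 locus lies at the distal end of chromosome 7. Igf2 encodes insulin-like growth factor 2, a fetal growth factor expressed from the paternal copy, and H19 is a noncoding RNA of the maternal copy that shares enhancers with it. Igf2 (Entrez 16002, chromosome 7, 142650768 to 142666816 in GRCm38) was at 0.237, 2.54 and 2.21 CPM in the Suz12 cKO libraries, from 15, 167 and 158 counts. Wild type libraries had 0 counts of Igf2 in all 4. Groups did not overlap, but Suz12 cKO replicate 1 was far below the other two. Against a floor of 3 counts over the wild type group, Igf2 was at least 138-fold higher in the Suz12 cKO mean, a bound that covers counting error only. The fitted log2 fold change of 9.74 (SE 1.70, edgeR adjusted p = 0.0221) depends on the small count added to a group at 0. Igf2 had passed the filter through the Suz12 cKO libraries alone, so it had to differ. The p-values of Igf2 given here therefore add no support. The call was lost without Suz12 cKO replicate 2 (adjusted p = 0.0975) and without replicate 3 (adjusted p = 0.0674). The adjusted p was 0.0498 among the 4 libraries low in tissue RNA alone and 0.0946 among the 3 high ones alone. H19 did not accompany Igf2: it had 3 counts in Suz12 cKO replicate 2 and 0 in the other 6 libraries. The antisense transcript Igf2os, which shares 98 exon bases with Igf2, had 7 counts summed over Suz12 cKO and 0 over wild type. Reads of the pair cannot be told apart without the strand setting. Gm49394, on the same strand as Igf2, shares 3596 exon bases with it in the GENCODE annotation. Strand could not tell reads of those bases apart.

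Of 14 other annotated genes that start within 250 kb of Igf2, 6 were tested, 0 rose and 1 fell. The gene that fell was Lsp1, a leukocyte actin-binding protein gene (log2 fold change -0.68, adjusted p = 0.00164). Ins2 and Th, which adjoin Igf2 on one side, had 0 counts in every library.

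The Igf2r-Airn locus lies on chromosome 17. Igf2r encodes the cation-independent mannose 6-phosphate receptor, which carries enzymes to lysosomes and removes IGF2 from the cell surface, and in mouse it is expressed from the maternal copy. Airn is the antisense noncoding RNA that silences Igf2r on the paternal copy. Igf2r (Entrez 16004, chromosome 17, 12682406 to 12769706) was at 31.1, 28.9 and 56.0 CPM in Suz12 cKO, against 8.79, 9.22, 13.1 and 7.38 CPM in wild type. Each Suz12 cKO library was above each wild type library, and Suz12 cKO replicate 3 was the highest of the 7. The means were 38.7 ± 15.1 and 9.63 ± 2.47 CPM (SD, n = 3 and n = 4), a difference of 2.0 on the log2 scale (SE 0.27, edgeR adjusted p = 0.00308). Igf2r was the one member called in all 14 alternative fits, with log2 fold changes between 1.62 and 2.50. Airn had 0, 6 and 13 counts in the Suz12 cKO libraries and 6, 0, 4 and 0 in the wild type libraries, too few for a test. Of the 11 other genes that start within 250 kb of Igf2r, 4 were tested and 0 were called. The transporter gene Slc22a2 had 0 counts in every library.

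The Prader-Willi locus, in the middle of chromosome 7, is expressed from the paternal copy and is named after the human syndrome caused by its loss. Ndn encodes necdin, a MAGE family protein that restrains growth of neurons and of blood stem cells. Ndn (Entrez 17984, chromosome 7, 62348277 to 62349928) was at 5.22, 9.32 and 8.40 CPM in Suz12 cKO, against 0.784, 0.870, 0.477 and 0 CPM in wild type. Groups did not overlap, and wild type replicate 4 had no count. Ndn had a log2 fold change of 3.82 (SE 0.92, edgeR adjusted p = 0.0328). Direction held in each fit with 1 library left out, between 3.41 and 4.13. Of these fits, those lacking wild type replicate 2 or 4 kept the call. Leaving out Suz12 cKO replicate 1, 2 or 3 gave adjusted p = 0.0735, 0.114 and 0.0841, and leaving out wild type replicate 1 or 3 gave 0.0688 and 0.0891. The log2 fold change of Ndn was 3.06 in the 3 libraries high in tissue RNA (adjusted p = 0.0112) and 4.28 in the 4 low ones (adjusted p = 0.0920). Its neighbours did not reach the filter. Magel2, a second MAGE gene, had 0 counts in all 7 libraries. Mkrn3, a ubiquitin ligase gene that holds back puberty, had 7, 10 and 0 counts in Suz12 cKO, against 0, 22, 0 and 0 in wild type. Snrpn, which encodes a spliceosomal protein, had 1 count in Suz12 cKO replicate 3 and none elsewhere. Peg12, an imprinted gene outside the set that starts 114 kb from Ndn, had 74 counts summed over Suz12 cKO and 8 over wild type and was not tested.

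**Figure D2:**
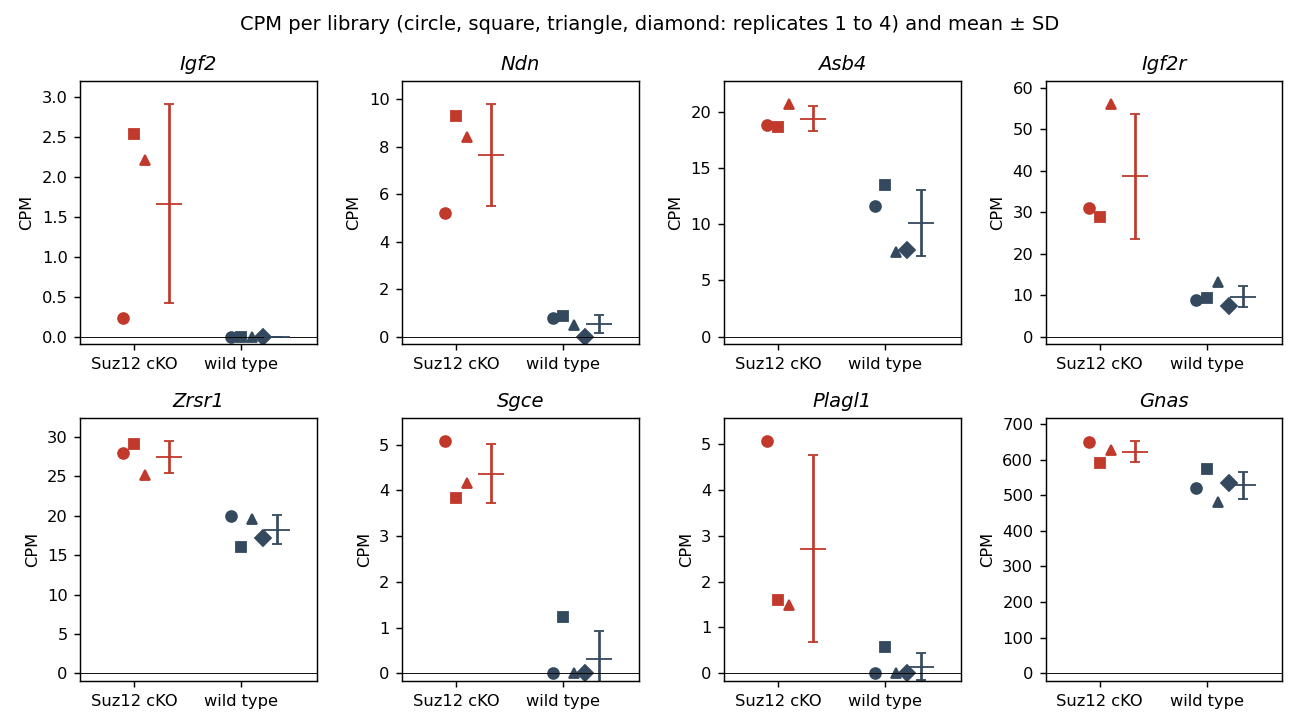
CPM of 8 imprinted genes in each library, Suz12 cKO left of wild type, with the mean and SD of each genotype beside the points. These are the 8 members whose ranges did not overlap, so the Suz12 cKO points lie above all wild type points by choice of genes. The smallest relative margin is that of Gnas. Of all tested genes, 14.1% were higher without overlap. Igf2, Sgce and Plagl1 passed the filter on low counts through the Suz12 cKO libraries.

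The Peg10-Sgce locus, at the proximal end of chromosome 6, holds 3 members. Asb4 encodes an ankyrin repeat and SOCS box protein, the substrate-binding part of a ubiquitin ligase, and is expressed from the maternal copy. Asb4 (Entrez 65255, chromosome 6, 5383386 to 5433022) was at 18.8, 18.7 and 20.7 CPM in Suz12 cKO, against 11.7, 13.5, 7.56 and 7.73 CPM in wild type. Groups did not overlap, and the fold was modest (log2 fold change 0.94, SE 0.23, edgeR adjusted p = 0.0347). Leaving out wild type replicate 2 kept the call (adjusted p = 0.00790). It was lost on leaving out any other library, with adjusted p = 0.0981, 0.0964 and 0.0958 when Suz12 cKO replicate 1, 2 or 3 was dropped. Dropping wild type replicate 1, 3 or 4 gave adjusted p = 0.0582, 0.0820 and 0.0727. The log2 fold change of Asb4 was 0.47 in the 3 libraries high in tissue RNA (adjusted p = 0.307) and 1.19 in the 4 low ones (adjusted p = 0.0527).

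Sgce encodes epsilon-sarcoglycan, a membrane protein mutated in human myoclonus-dystonia, and Peg10 is a retrotransposon-derived gene needed for the placenta. Both are transcribed from the paternal copy, in opposite directions from neighbouring starts. Sgce was at 5.08, 3.84 and 4.17 CPM in Suz12 cKO, against 0, 1.23, 0 and 0 CPM in wild type. Groups did not overlap, yet the edgeR adjusted p was 0.207. Wild type replicate 2, high in tissue RNA, was the sole wild type library with counts of Sgce (75). Without that library the adjusted p of Sgce was 7.55e-04, against 3 wild type libraries at 0 counts. Sgce had passed the filter through the Suz12 cKO libraries, so that p-value adds no support. In the 3 libraries high in tissue RNA its log2 fold change was 1.86. Peg10 had 40, 31 and 0 counts in the Suz12 cKO libraries and 0 in every wild type library, and was not tested. Ppp1r9a, an imprinted gene of the same cluster outside the set, is described with the other imprinted genes below.

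Zrsr1 is a retrogene on chromosome 11 that encodes a relative of the splicing factor subunit U2AF35 and is expressed from the paternal copy. It sits inside Commd1, on the opposite strand. Zrsr1 (Entrez 22183, chromosome 11, 22972005 to 22976496) was at 28.0, 29.2 and 25.2 CPM in Suz12 cKO, against 19.9, 16.1, 19.7 and 17.2 CPM in wild type. The change was small but did not overlap between groups (log2 fold change 0.59, SE 0.13, edgeR adjusted p = 0.0235). Commd1, with which it shares 412 exon bases in the GENCODE annotation, had a log2 fold change of -0.19 and missed the threshold (adjusted p = 0.615). The call for Zrsr1 did not survive leaving out Suz12 cKO replicate 1 (adjusted p = 0.0869) or 2 (adjusted p = 0.0975), nor wild type replicate 3 (adjusted p = 0.0501) or 4 (adjusted p = 0.0594). The log2 fold change of Zrsr1 was 0.40 in the 4 libraries low in tissue RNA (adjusted p = 0.246) and 0.83 in the 3 high ones (adjusted p = 0.0559).

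**Figure D3:**
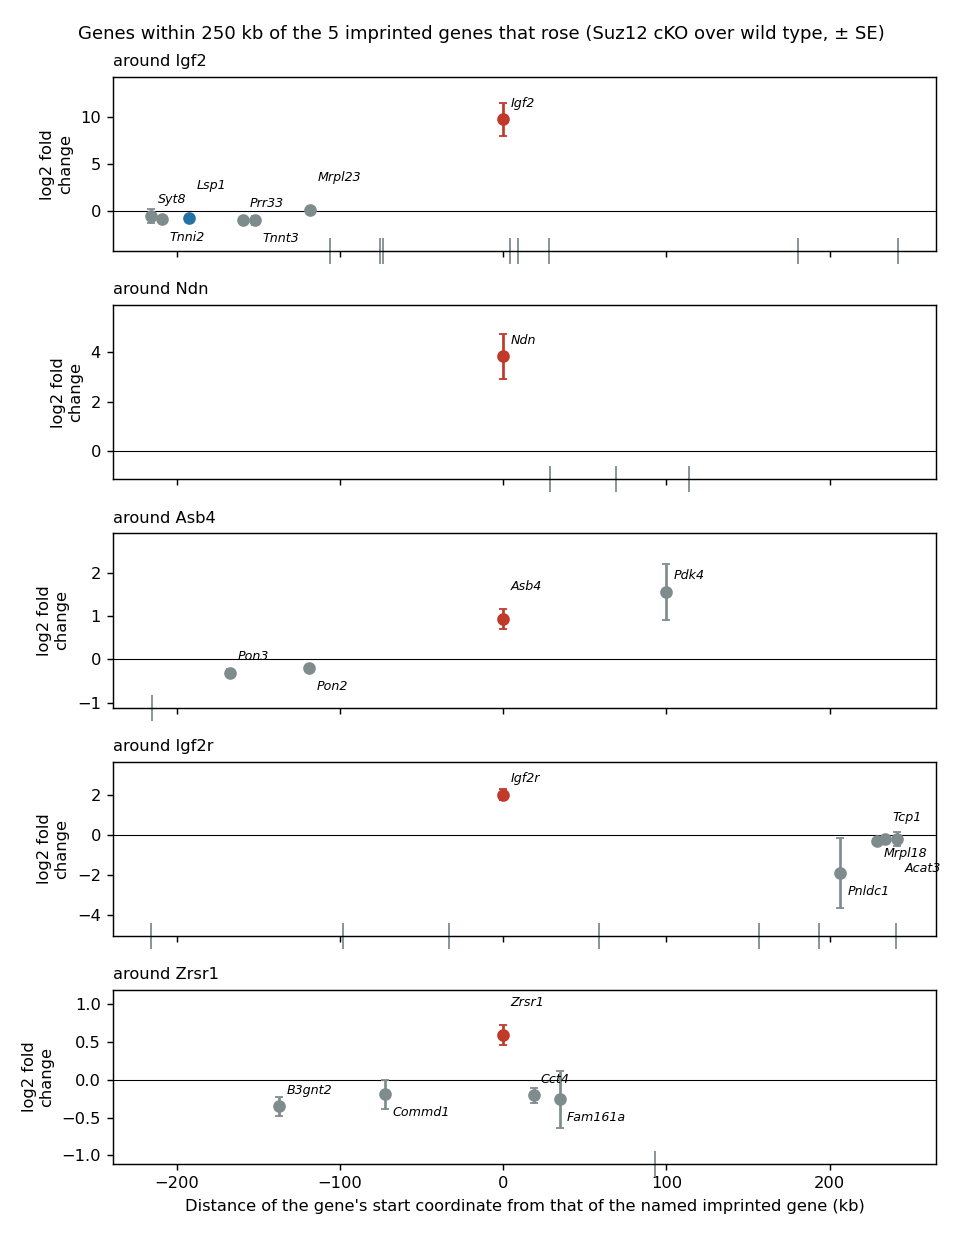
Log2 fold change of tested genes (points, ± SE) against the distance of their start coordinate from that of each imprinted gene that rose, with grey ticks for genes that were not tested. Lsp1, at -0.68, is the one called neighbour across the 5 windows, and no neighbour was called higher. Pdk4, in the Asb4 window, is at 1.56 with overlapping ranges and was not called (edgeR adjusted p = 0.170).

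The neighbours are the genes whose start coordinate lies within 250 kb of that of the imprinted gene. Around Zrsr1 0 of 4 tested neighbours were called, around Asb4 0 of 3, and around Ndn none of 3 neighbours could be tested. Over the 5 windows 17 neighbours were tested, of which 0 were called higher and 1, Lsp1, was called lower. At shares of 6.28% and 4.02% over all genes, that count is too small to set apart from the background. Ppp1r9a, which rose and is described below, starts beyond the Asb4 window.

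The Kcnq1ot1 locus adjoins the Igf2-H19 locus on chromosome 7 and holds 6 members, of which 4 were tested and 0 were called. Kcnq1ot1, the paternal noncoding RNA that silences its neighbours in cis, was at 7.92, 9.46 and 8.20 CPM in Suz12 cKO, against 9.50, 6.81, 10.9 and 5.81 CPM in wild type. The ranges overlapped (log2 fold change 0.05, SE 0.25, edgeR adjusted p = 0.946). Slc22a18, a transporter gene, averaged 19.5 ± 1.19 and 17.8 ± 3.06 CPM (SD, n = 3 Suz12 cKO and n = 4 wild type), for a log2 fold change of 0.13 (SE 0.16). Tssc4, which encodes a factor of spliceosome assembly, also had a log2 fold change of 0.13 (SE 0.16). Nap1l4, a histone chaperone gene, was among the steadiest members, at 120 ± 10.7 against 119 ± 0.622 CPM. Phlda2, which limits placental growth, had 11 counts in Suz12 cKO replicate 2 and 0 in the other libraries. Ascl2, a transcription factor gene of placenta and intestinal stem cells, had 20 counts in the same library, 9 in wild type replicate 3 and 0 elsewhere. Kcnq1ot1 is a single exon of 83437 bases that overlaps Kcnq1 on the other strand, so its count may hold reads of that gene.

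Single-gene loci varied in level. Gnas, which encodes the stimulatory G protein alpha subunit and whose allele of origin depends on the transcript, was at 650, 591 and 626 CPM in Suz12 cKO, against 520, 575, 482 and 535 CPM in wild type. These ranges did not overlap, but the log2 fold change was 0.24 and Gnas was not called by edgeR (adjusted p = 0.121). DESeq2 did call it (adjusted p = 0.0324). Mest, a hydrolase gene of mesoderm, was at 2.41 to 3.20 CPM in Suz12 cKO and 1.51 to 2.60 CPM in wild type (adjusted p = 0.586), and it overlaps Copg2 by 912 exon bases. Nnat, which encodes the membrane protein neuronatin, had the one negative log2 fold change of the tested members (-0.27, SE 0.76, adjusted p = 0.884). Per kilobase of exon, Gnas had a level of 103 CPM in Suz12 cKO and 87.1 CPM in wild type. On the same scale Nap1l4 was at 52.7 CPM in Suz12 cKO and 52.3 CPM in wild type, and Impact at 22.0 and 21.1 CPM. Igf2r reached 4.33 CPM per kilobase in Suz12 cKO, against 1.08 in wild type, and Ndn 4.63 against 0.322. The per-length levels of Igf2r and Ndn in Suz12 cKO were thus below those of Gnas, Nap1l4 and Impact in either genotype.

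Plagl1 and Impact each turned on wild type replicate 2. Plagl1 encodes a zinc finger transcription factor that regulates other imprinted genes in mouse tissues. It was at 5.07, 1.60 and 1.48 CPM in Suz12 cKO, against 0, 0.574, 0 and 0 CPM in wild type. Groups did not overlap, and the log2 fold change of 4.22 (SE 1.75) had an edgeR adjusted p of 0.176. Without wild type replicate 2 Plagl1 was called (adjusted p = 0.00412), and with a term for tissue RNA the adjusted p was 0.0431. Plagl1 had passed the filter through the Suz12 cKO libraries, and the other 3 wild type libraries had 0 counts of it. These p-values therefore add no support. Impact encodes an inhibitor of the stress kinase GCN2. It was at 78.2, 80.7 and 67.3 CPM in Suz12 cKO, against 55.2, 132, 48.5 and 53.1 CPM in wild type. Wild type replicate 2 stood above all other libraries, while the other 3 wild type libraries stood below every Suz12 cKO library. The log2 fold change of Impact was 0.06 (adjusted p = 0.946) over all libraries and 0.52 (adjusted p = 0.0124) without wild type replicate 2. In the 3 libraries high in tissue RNA it was -0.73, with wild type replicate 2 as the sole wild type library, and in the 4 low ones it was 0.35.

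**Figure D4:**
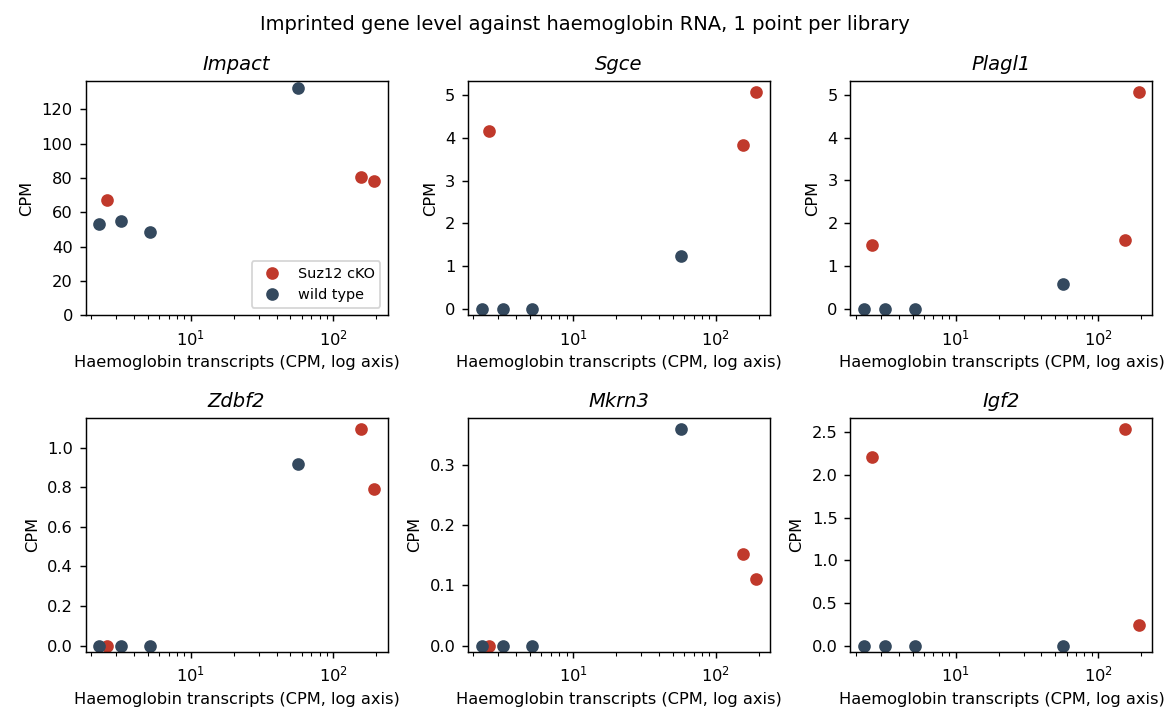
CPM of 6 imprinted genes against the summed CPM of haemoglobin transcripts (log axis), 1 point per library, coloured by genotype. Zdbf2 and Mkrn3 have counts only in the 3 libraries at 56.6 to 192 CPM of haemoglobin, whereas Igf2 is at 2.21 CPM in a Suz12 cKO library with 2.58 CPM of haemoglobin.

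Several low members were seen in the 3 libraries high in tissue RNA and nowhere else. This held for 9 members: H19, Phlda2, Peg3, Mkrn3, Meg3, Rian, Peg10, Grb10 and Zdbf2. H19, Phlda2, Peg3 and Rian had counts in a single library each (3, 11, 5 and 3), so they cannot show a link with tissue RNA. The share of all genes seen only in the 3 high libraries is not given here. Zdbf2, a zinc finger gene active in the hypothalamus, and Mkrn3 had counts in all 3 of those libraries. Zdbf2 was at 0.789, 1.10 and 0 CPM in Suz12 cKO, against 0, 0.919, 0 and 0 CPM in wild type (adjusted p = 0.772). No untested member exceeded 0.631 CPM in any library. Markers of alveolar epithelium summed to 132 to 165 CPM in Suz12 cKO and 65.6 to 158 CPM in wild type. Of the 12, 0 were at 0 in every library, and wild type replicate 2 had the top sum of its group. Cdh1 was the largest part of these sums, at 87.4 to 112 CPM in Suz12 cKO and 44.6 to 64.4 CPM in wild type. In Suz12 cKO replicate 3 Cdh1 was at 112 CPM, and Sftpc, Sftpb, Sftpa1, Cldn18, Slc34a2 and Aqp5 were at 0. For 8 of the 12, Suz12 cKO replicates 1 and 2 and wild type replicate 2 stood above the remaining libraries. Cdh1 was the 1 epithelial marker called higher (log2 fold change 0.97, adjusted p = 0.00464). Fibroblast markers, of cells in which H19, Meg3 and Grb10 can be expressed, summed to 305 to 366 CPM in Suz12 cKO and 325 to 374 CPM in wild type, with Tcf21 of the 15 at 0. Most of that sum was Gsn, at 294 to 362 CPM over all libraries. Endothelial markers summed to 158 to 198 CPM in Suz12 cKO and 146 to 167 CPM in wild type, with Emcn of the 12 at 0. The part of other cells in the low members was not tested.

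The remaining loci were silent or nearly so. At the Dlk1-Meg3 locus on chromosome 12, Dlk1, which encodes an inhibitor of adipocyte formation, and the noncoding RNA Mirg had 0 counts in all libraries. The noncoding RNAs Meg3 and Rian did not exceed 7 counts in any library. At the Peg3 locus the deubiquitinase gene Usp29 and the zinc finger gene Zim1 had 0 counts, and the zinc finger gene Peg3 had 5 in wild type replicate 2. Grb10, an adaptor gene that dampens insulin and IGF receptor signals, had 1, 17 and 0 counts in Suz12 cKO, against 0 in the wild type libraries. Rasgrf1, an exchange factor gene for Ras, had 5, 13 and 0 counts in Suz12 cKO, against 7, 0, 7 and 14 in wild type. For a gene with 0 counts in the wild type group, 3 counts over the group set an upper limit of 0.0121 CPM, as far as counting error goes.

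By parent of origin, 13 members are usually expressed from the maternal copy and 19 from the paternal copy, while Gnas is mixed. Of the maternal ones 5 were tested, and Igf2r and Asb4 rose. Of the paternal ones 10 were tested, and Igf2, Ndn and Zrsr1 rose, though Igf2 passed the filter only through the Suz12 cKO libraries. Both kinds therefore held genes that rose, and 0 of either kind fell. Among the 12 tested members that did not need the Suz12 cKO libraries to pass the filter, 11 had a log2 fold change above 0. Over all tested genes 50.4% did. Some of the 11 were close to 0, with Nap1l4, Kcnq1ot1 and Impact at 0.01, 0.05 and 0.06. The median of the 12 was 0.19, against a median of 0.00 over all 14436 tested genes. Ranges did not overlap in 5 of these 12, each higher in Suz12 cKO, where 14.1% of all tested genes were higher and 11.5% lower without overlap. These counts describe the members that passed the filter and carry no test.

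**Figure D5:**
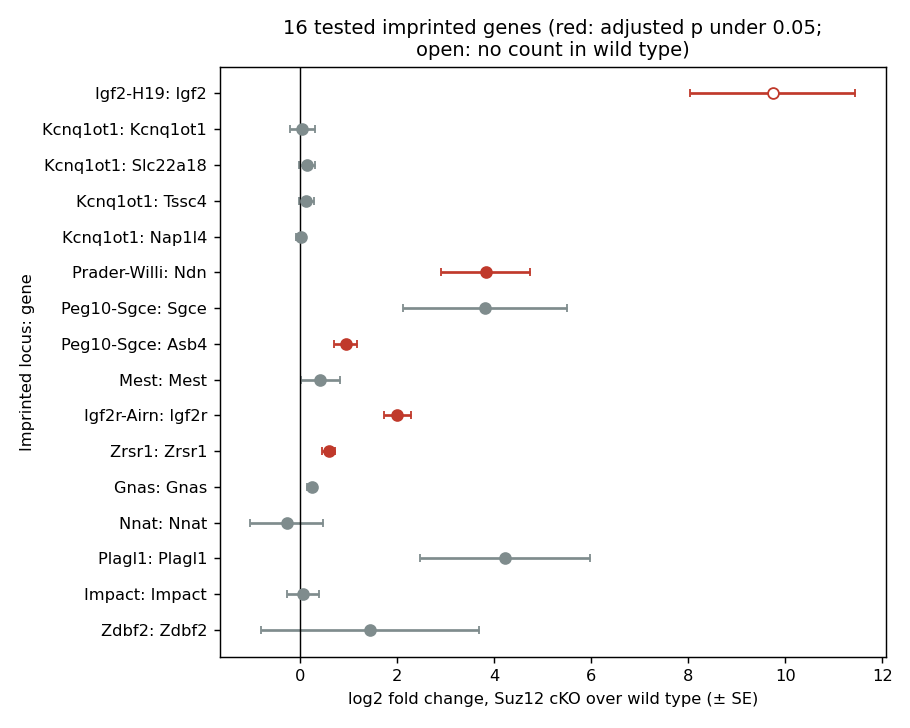
Log2 fold change of Suz12 cKO over wild type (± SE) for the 16 tested imprinted genes, by locus. Red points had an adjusted p under 0.05, the open point is Igf2 with no wild type count, and the 4 genes of the Kcnq1ot1 locus lie between 0.01 and 0.13.

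Other imprinted genes, 52 listed from textbook knowledge and 51 found in the table, moved in both directions. Of 31 tested, 6 rose and 1 fell, which is 19.4% and 3.23%, beside 6.28% and 4.02% of all genes. Ppp1r9a, which encodes the actin-binding protein neurabin and lies in the Peg10-Sgce cluster, was at 23.1, 19.8 and 11.9 CPM in Suz12 cKO, against 1.39, 1.20, 0.153 and 0.351 CPM in wild type (log2 fold change 4.54, SE 0.66, edgeR adjusted p = 0.00404). Around Kcnq1ot1, genes imprinted mainly in placenta diverged. Cd81, a tetraspanin gene, averaged 287 ± 23.0 and 148 ± 5.90 CPM (SD, n = 3 Suz12 cKO and n = 4 wild type), with an adjusted p of 6.47e-04. Osbpl5, an oxysterol-binding protein gene, averaged 9.41 ± 2.45 against 1.54 ± 1.02 CPM (adjusted p = 0.0131), a call lost without Suz12 cKO replicate 2 (adjusted p = 0.0604). Tspan32, a tetraspanin gene of blood cells, fell to 35.6 ± 6.20 CPM in Suz12 cKO, against 80.9 ± 13.3 CPM in wild type (adjusted p = 0.00316). Qpct, Peg13 and Copg2, named after their values were seen, rose by 1.15, 0.56 and 0.34 on the log2 scale. Qpct was not called without Suz12 cKO replicate 2 or 3 or wild type replicate 3 (adjusted p = 0.0613, 0.0692 and 0.0584). Peg13 was not called without Suz12 cKO replicate 1, 2 or 3 or wild type replicate 1 (adjusted p = 0.127, 0.0668, 0.0709 and 0.0759). Copg2 was not called without any one of the 7 libraries (adjusted p between 0.0553 and 0.130). The count called higher was 2 without Suz12 cKO replicate 2 and 3 without replicate 3, and the count called lower was 3 without wild type replicate 2. Over the 31 tested genes the median log2 fold change was 0.05.

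The IGF axis, which IGF2 feeds, held 23 listed genes, of which 15 were tested, 5 rose and 0 fell. That is 33.3% and 0%, beside 6.28% and 4.02% of all tested genes, in a list chosen with earlier results known. Igf1r, the receptor through which IGF2 signals, was at 14.6, 12.3 and 16.9 CPM in Suz12 cKO, against 2.07, 4.22, 1.75 and 1.71 CPM in wild type (log2 fold change 2.58, SE 0.35, edgeR adjusted p = 0.00288). Igf1, the related ligand, averaged 204 ± 11.9 and 117 ± 15.0 CPM in Suz12 cKO and wild type (SD, n = 3 and n = 4). The fetal RNA-binding proteins that bind Igf2 mRNA were each higher: Igf2bp3 averaged 25.7 ± 0.437 against 1.25 ± 0.729 CPM (adjusted p = 0.00266), while Igf2bp1 and Igf2bp2 rose by 4.72 and 3.85 on the log2 scale (adjusted p = 0.0289 and 0.0307). Igf2bp1 was at 0.411, 0.361, 0 and 0.0206 CPM in wild type and passed the filter on low counts only with help of Suz12 cKO libraries. Its call is therefore weak support. Igf2bp1 lost its call without Suz12 cKO replicate 1, 2 or 3 (adjusted p = 0.0918, 0.0890 and 0.0691). Igf2bp2 lost its call without the same libraries (adjusted p = 0.101, 0.0866 and 0.0651) and without wild type replicate 3 (adjusted p = 0.0875). Insr and the lysosomal sorting receptor gene M6pr, the small relative of Igf2r in function, missed the threshold, at -0.08 and -0.23 on the log2 scale (adjusted p = 0.752 and 0.167).

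Factors that maintain imprints, such as the DNA methyltransferases and their partners, were mostly not called. Of 20 listed genes 19 were tested, 0 rose and 2 fell, which is 0% and 10.5%, beside 6.28% and 4.02% of all tested genes. Uhrf1, which brings DNA methyltransferase 1 to newly copied DNA, was at 7.62, 5.86 and 4.45 CPM in Suz12 cKO, against 21.3, 17.3, 15.1 and 23.7 CPM in wild type (log2 fold change -1.69, SE 0.24, edgeR adjusted p = 0.00392). Hells, a chromatin remodeller gene needed for DNA methylation, averaged 4.78 ± 1.61 against 9.59 ± 1.54 CPM (SD, n = 3 Suz12 cKO and n = 4 wild type; edgeR adjusted p = 0.0476). Its call held without Suz12 cKO replicate 2 and was lost without any other library (adjusted p between 0.0589 and 0.154). Dnmt1 itself averaged 88.3 ± 9.10 against 110 ± 15.2 CPM (SD, n = 3 Suz12 cKO and n = 4 wild type; adjusted p = 0.177). Zfp445 and Trim28, which protect imprints in the early embryo, had log2 fold changes of 0.01 and -0.15. Of the 6 PRC2 core genes Suz12 was the 1 called lower and 0 were called higher. Rbbp4 and Rbbp7, histone-binding subunits, were also lower in every Suz12 cKO library than in any wild type library, at -0.25 and -0.17 on the log2 scale (adjusted p = 0.137 and 0.247), and were not called.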

How the data were processed

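Whole-number counts of reads per gene were deposited by the authors for 27179 Entrez genes in 7 libraries; they were made with featureCounts on mm10, per the submitters' processing notes. Aligner, annotation, version and strand setting were not given in the sources read. Libraries were polyadenylated RNA made with a TruSeq kit and read as 85 bp single-end reads, per the labels. Library totals, 48104653 to 79281431 counts, are 2.41 to 5.66 times the stated read yields, for a reason not given, so low counts may stand for fewer reads, and floors cover counting error only. CPM, log2 fold changes and gene levels per kilobase were computed here.

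Symbols and positions came from RefSeq for GRCm38.p6, the assembly of mm10 (25275 genes matched); exon overlaps came from GENCODE M21. Genes were filtered with filterByExpr (minimum count 10, minimum total 15; 14436 kept), scaled by TMM and tested with edgeR 4.0.16 in R 4.3.3 on genotype alone. SE is the log2 fold change divided by the root of F. The fit was tested on simulated data. Alternatives were RLE factors, no filter, DESeq2 1.42.0, a replicate block, a term for tissue RNA (haemoglobin over 20 CPM), either tissue RNA class alone, and each library left out.

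All members are named; of each other list, the called genes or the 4 smallest p-values. Members and lists were chosen with earlier results of these data known. Replicates of a group correlated with r of 0.916 to 0.969 in log2 CPM and no pair was a copy.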

Additional observations from a re-analysis of the deposited data

Results flagged for a closer look

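In 8 members 1 wild type library stood apart from the other 3, with a gap to the nearest library past the 95% critical value of Dixon's test for 4 samples. Chance flags about 1 in 20 groups of 4, a rate that holds for Impact alone, because any gene with counts in a single library stands apart in this way. Wild type replicate 2 was the high library for 7 of them: Impact at 132 CPM, Sgce at 1.23 CPM, Zdbf2 at 0.919 CPM, Plagl1 at 0.574 CPM, Mkrn3 at 0.361 CPM, Peg3 at 0.0821 CPM and Meg3 at 0.0492 CPM. The last 4 rest on 35, 22, 5 and 3 counts. Ascl2 was high in wild type replicate 3, at 0.153 CPM from 9 counts. Except for Impact, the other 3 wild type libraries had 0 counts of the gene. Wild type replicate 2 was also the wild type library with most haemoglobin transcripts (56.6 CPM); a link with these values was not tested.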

How the results depend on the processing

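Igf2r was called higher in all 14 alternative fits. The number of imprinted members called higher was 5 with RLE factors and with no filter, 6 with DESeq2 and with a term for tissue RNA, 2 with the replicate block, 3 within the 4 libraries low in tissue RNA and 2 within the 3 high ones, where 1 member, Impact, was lower (log2 fold change -0.73, reversed against 0.06 and resting on wild type replicate 2). With 1 library left out it ranged from 1 (without Suz12 cKO replicate 2) to 8 (without wild type replicate 2), and 0 were lower. Those 8 included Sgce and Plagl1, then without a count in any wild type library. The median log2 fold change of tested members was 1.33 with no filter and 0.83 within the 3 libraries high in tissue RNA, from other sets of members tested. All genes called higher numbered 1393 with DESeq2 and 585 with the replicate block, and 447 to 1515 with 1 library left out. All genes called lower numbered 278 with the replicate block, 367 within the 4 low libraries and 328 within the 3 high ones, and 268 to 885 with 1 library left out. Other imprinted genes called lower numbered 2 with DESeq2 and 2 within the 3 high libraries, and 1 to 3 with 1 library left out; those called higher numbered 2 to 6 with 1 library left out. A fit within 1 tissue RNA class has 1 library of one genotype, which is assumed to vary like the others. Replicate numbers come from titles and are not said to pair mice. Deviations from group means correlated at -0.04, 0.24 and 0.16 for numbers 1, 2 and 3, and Suz12 cKO replicate 1 correlated best with wild type replicate 2. Suz12 cKO replicates 1 and 2 and wild type replicate 2 are the libraries high in tissue RNA. These correlations therefore cannot settle whether the numbers pair the libraries. Calls for Igf2, Asb4 and Zrsr1 were lost under the block and those for Igf2r and Ndn kept. Counts at the lowest members limit what could be tested.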
